A study of Mus musculus with 2 samples.

Results

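The Meis and Pbx genes followed here encode homeodomain transcription factors of the TALE class, and 7 of them were taken by name from the 27998 genes of the count tables: Meis1, Meis2, Meis3, Pknox1 (also called Prep1), Pbx2, Pbx3 and Pbx4. They were picked because factors of this class are known regulators of Pax6 in the lens ectoderm, with earlier results of these data already known. All 7 had UMIs (unique molecular identifiers, each counting 1 captured RNA molecule) in both libraries. The libraries were droplet single-cell libraries of the 3′ ends of transcripts from the ocular area of C57BL/6J mouse embryos at the 26-somite stage. One was labelled wild type (WT) and the other Mab21l1-null (KO), each made from the pair of optic areas of 1 embryo. By its label, the null allele would be carried by every cell of the KO embryo, and the labels name no treatment of either embryo. With 1 library for each genotype there is no replicate check on any difference between genotypes: the intervals printed are exact 95% intervals for counting error alone, and no p-value is given.

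The deposited tables held 1745 barcodes (43636657 UMIs) in the WT library and 2458 barcodes (53148253 UMIs) in the KO library, of which 1680 and 2404 passed the limits on detected genes and mitochondrial UMIs, with median depths of 21037 and 18135 UMIs a cell. The targeted gene goes against the labels over whole libraries: Mab21l1 had 886 UMIs, or 20.3 CPM (UMIs of a gene per 1000000 UMIs of the same cells), in the WT library and 1718 UMIs, or 32.3 CPM, in the KO library. In the ectoderm-like cells it was lower under the KO label, at 81.6 CPM [66.5, 99.0] against 42.7 CPM [29.7, 59.4]. Whether the counted 3′ end lies in the part of the gene removed by the allele was not tested, so the samples are called the library labelled WT and the library labelled KO throughout, and exchanged labels would turn each KO over WT ratio around. The 2 libraries shared 15 barcodes, none of them in ectoderm-like cells.

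TALE homeodomains carry a short insertion in the loop that joins the first helices. Meis and Pknox proteins bind DNA as partners of Pbx proteins and share a Meis-type recognition site, and Pbx proteins also pair with Hox proteins. In the head surface ectoderm, Meis factors act on a lens enhancer of Pax6, the master regulator of eye development, and Meis2 has further roles in the optic vesicle and neural crest derivatives. Meis1 lies on the minus strand of chromosome 11 (18879817 to 19018985 in GRCm38, GENCODE vM21), Meis2 on the minus strand of chromosome 2 (115863064 to 116065839), Meis3 on chromosome 7 (16175090 to 16186504) and Pknox1 on chromosome 17 (31564734 to 31607693). Pbx2 lies on chromosome 17 (34591266 to 34597400), Pbx3 on the minus strand of chromosome 2 (34171457 to 34373142) and Pbx4 on chromosome 8 (69832491 to 69872292). Exon bases of Meis1 are shared with Gm37818 on its own strand and Gm16140 on the other. Those of Pbx2 are shared with Gpsm3 on its own strand, and those of Pknox1 with AC166172.4 on the other strand. Reads in the same-strand overlaps could be split or lost in the authors' counting.

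The family relation of the members is visible in the coding sequence of the homeobox, read from the GENCODE vM21 transcripts as 189 bases 5′ to 3′. A Meis pair, the Prep gene and a Pbx gene are shown so that each branch of the family is represented, with Meis1 and Meis2 as the pair of most alike levels. The capitals mark bases 70 to 78, the proline, tyrosine and proline codons of the inserted loop.
Meis1: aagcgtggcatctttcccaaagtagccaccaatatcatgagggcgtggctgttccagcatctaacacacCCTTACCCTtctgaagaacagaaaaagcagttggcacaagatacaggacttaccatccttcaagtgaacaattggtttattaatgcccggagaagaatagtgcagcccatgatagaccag
Meis2: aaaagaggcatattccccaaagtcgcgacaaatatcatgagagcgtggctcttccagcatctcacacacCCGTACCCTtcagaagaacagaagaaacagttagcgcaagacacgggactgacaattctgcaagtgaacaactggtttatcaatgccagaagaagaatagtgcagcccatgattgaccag
Pknox1: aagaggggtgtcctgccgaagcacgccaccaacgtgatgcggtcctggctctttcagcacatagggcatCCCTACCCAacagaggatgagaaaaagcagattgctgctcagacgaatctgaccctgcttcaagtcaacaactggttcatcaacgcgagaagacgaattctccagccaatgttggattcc
Pbx2: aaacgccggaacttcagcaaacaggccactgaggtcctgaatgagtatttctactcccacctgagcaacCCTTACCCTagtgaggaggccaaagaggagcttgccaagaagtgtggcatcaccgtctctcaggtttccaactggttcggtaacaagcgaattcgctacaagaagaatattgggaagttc

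Each stretch was cut at a fixed distance around the loop codons, so these stand at the same place in all 7 members by construction. Meis1 and Meis2 were identical at 85.2% of the 189 bases, Meis1 and Meis3 at 85.7% and Meis2 and Meis3 at 83.6%. Among the Pbx genes the identity was 79.4% for Pbx3 with Pbx4, 81% for Pbx2 with Pbx3 and 82.5% for Pbx2 with Pbx4. Pknox1 shared 65.1% with each of Meis1 and Meis2, and the Meis genes shared between 45% and 52.9% with the Pbx genes. These stretches lie in the coding exons, whereas the UMIs were counted near the 3′ ends.

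The promoter windows in the RefSeq table (GRCm38.p6, 250 bases before to 50 after a start site) were searched on both strands for the Meis-type site TGACAG, and 6300 of 32851 promoters (19.2%) held it. One of the Pax6 windows, chr2:105682213-105682512 on the plus strand, held 1 match, read from the opposite strand and starting at position -159 relative to the start site. It is shown because Pax6 is the gene the members were chosen for, with the match in capitals.
Pax6: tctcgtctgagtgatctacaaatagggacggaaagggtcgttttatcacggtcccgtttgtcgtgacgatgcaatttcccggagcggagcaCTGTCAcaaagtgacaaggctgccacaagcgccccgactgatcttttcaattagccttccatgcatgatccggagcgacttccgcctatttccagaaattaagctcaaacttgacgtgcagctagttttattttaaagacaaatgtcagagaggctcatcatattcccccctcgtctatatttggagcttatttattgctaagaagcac

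The other Pax6 window and the windows of Meis1, Meis2, Meis3, Pbx2 and Pbx4 held no match. Pbx3 and Pknox1 had no entry in the table. The match is a match of letters in a promoter window and not a measured binding site.

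Cells were sorted into classes by marker genes, none of which is a member, and a class is named after the markers its cells express. A cell was ectoderm-like when at least 4 of 8 ectoderm markers (among them Krt8, Epcam and Cdh1) were detected, which gave 59 cells under the WT label and 44 under the KO label, holding 1250614 and 820210 UMIs. Within it, lens placode (LP)-like cells had at least 4 of 9 placode markers such as Pax6, Six3 and Maf (39 and 19 cells), and surface ectoderm (SE)-like cells had fewer of these and at least 2 of 7 surface markers such as Dlx5 and Trp63 (20 and 23 cells). All 8 ectoderm markers, 8 of the 9 placode markers and all 7 surface markers were at least 2-fold higher in their own class than in the other cells. The gates use these same markers, so this was favoured by design and is no separate support for the names. The exception among the placode markers, Foxe3, was at 0 UMIs in the ectoderm-like cells of both libraries. The placode markers include Mab21l1, the gene targeted by the null allele. Several placode markers, Mab21l1 among them, were themselves lower under the KO label. The LP-like and SE-like gates therefore depend on the genotype label and do not take the same share of the ectoderm in both libraries. The undivided ectoderm-like class carries the comparison of genotypes, but its ratios pool both kinds of cells, whose mix differs between the libraries. The remaining classes were neural retina-like, ventral optic vesicle-like, retinal pigment epithelium (RPE)-like and forebrain-like neuroectoderm, Foxc-high and Alx-high mesenchyme-like cells, endothelium-like, neural crest-like and erythrocyte-like cells, with 21 to 371 cells a library. The neural retina-like class was led by the retinoid enzymes Aldh1a1 and Aldh1a7 with only 3 of its 7 own markers 2-fold higher, so its name is weak.

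Meis1, a Meis factor of the early lens ectoderm and optic vesicle, had its highest level in the ectoderm in both libraries. The ectoderm-like cells held 245 UMIs or 196 CPM [172, 222] under the WT label and 196 UMIs or 239 CPM [207, 275] under the KO label, where all kept cells had 61.5 and 67.2 CPM. SE-like cells came first, with 274 CPM [222, 334] and 319.6 CPM [263, 385], and LP-like cells second, with 166 CPM [140.1, 194] and 180.3 CPM [143, 224]. The optic vesicle followed, with 93.1 and 109.1 CPM in RPE-like, 89.7 and 103 CPM in neural retina-like and 71.9 and 83.0 CPM in ventral optic vesicle-like cells. Forebrain-like cells had 49.4 and 50.8 CPM, Alx-high mesenchyme-like cells 29.8 and 48.0 CPM, and Foxc-high mesenchyme-like cells 13.7 and 14.8 CPM. In the last 3 classes Meis1 was close to absent, with 2 and 1 UMIs in neural crest-like, 4 and 3 in endothelium-like and 0 and 2 in erythrocyte-like cells. The 0 in erythrocyte-like cells allows up to 2.34 CPM, taken as 3 UMIs of the class total (exact 95% upper bound 2.88 CPM).

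Going down this order, the step from SE-like to LP-like (1.65-fold [1.27, 2.15] and 1.77-fold [1.32, 2.39]) and from LP-like to RPE-like cells (1.78-fold [1.48, 2.13] and 1.65-fold [1.30, 2.08]) was beyond counting error in both libraries. RPE-like and neural retina-like cells were not told apart (1.04-fold [0.846, 1.28] and 1.06-fold [0.908, 1.24]). Forebrain-like and Alx-high cells were told apart under the WT label (1.66-fold [1.26, 2.17]) and not under the KO label (1.06-fold [0.866, 1.29]). Neighbours below the Foxc-high mesenchyme were too sparse to order.

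Meis2, the Meis gene tied to eye, palate and neural crest development, was likewise highest in the ectoderm classes. The ectoderm-like cells held 465 UMIs or 372 CPM [339, 407] under the WT label and 307 UMIs or 374 CPM [334, 419] under the KO label, against 99.0 and 100 CPM over all kept cells. In the library labelled WT, SE-like cells had 536 CPM [462, 618] and LP-like cells 308 CPM [273, 346], whereas under the KO label the values were 372 CPM [310.2, 442] and 378 CPM [324, 439]. RPE-like cells had 139 and 144 CPM, and Alx-high mesenchyme-like cells 109 and 161 CPM. Forebrain-like cells had 97.8 and 80.7 CPM, neural retina-like 90.5 and 85.8 CPM, ventral optic vesicle-like 78.4 and 82.5 CPM and Foxc-high mesenchyme-like cells 49.6 and 49.6 CPM. Neural crest-like cells had 15.2 and 9.88 CPM, endothelium-like cells 5.66 and 4.65 CPM and erythrocyte-like cells 1.56 and 0.597 CPM.

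The fall from the lower ectoderm class to the next was 2.22-fold [1.93, 2.54] under the WT label and 2.31-fold [1.91, 2.78] under the KO label. From Alx-high mesenchyme through forebrain-like, neural retina-like and ventral optic vesicle-like cells, no neighbours were told apart under the WT label, where the steps were 1.11-fold [0.944, 1.32], 1.08-fold [0.858, 1.37] and 1.15-fold [0.918, 1.44]. In the library labelled KO, Alx-high cells came above RPE-like cells by 1.11-fold [1.02, 1.22].

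**Figure D1:**
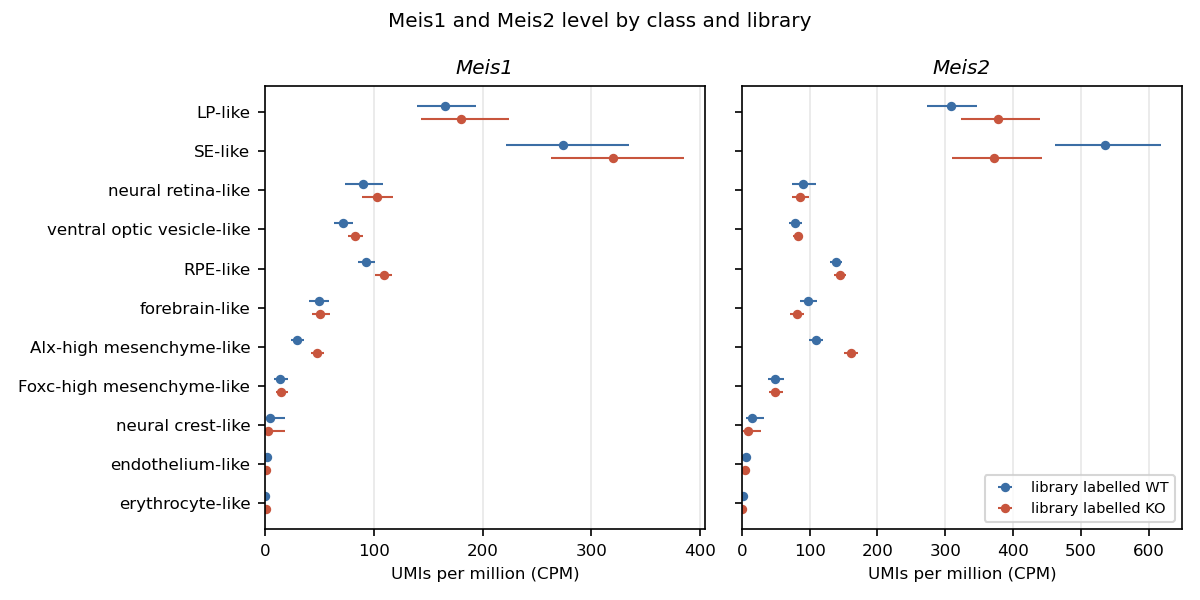
Levels of Meis1 and Meis2 in CPM by cell class, under the WT label and the library labelled KO, with exact 95% intervals for counting error. Meis1 was highest in SE-like cells (274 and 319.6 CPM), and Meis2 in SE-like cells under the WT label (536 CPM) but not under the KO label (372 CPM against 378 CPM in LP-like cells).

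Nearly every ectoderm-like cell had a UMI of these genes. Meis1 was detected in 98.3% and 95.5% of ectoderm-like cells (medians 19155 and 16226.5 UMIs a cell) and Meis2 in 100% of them in both libraries, against 0% and 4.17% of erythrocyte-like cells for Meis1 and 5.56% and 2.08% for Meis2. When each cell was thinned to 6000 UMIs, Meis1 was found in 69.5% [56.1, 80.8] of ectoderm-like cells under the WT label and 84.1% [69.9, 93.4] under the KO label, and Meis2 in 93.2% of cells of both. Meis1 and Meis2 together were found in 38 of 59 thinned cells (64.4%) and in 35 of 44 (79.5%), where the product of the separate shares gives 64.8% and 78.4%. With Meis2 in nearly all thinned cells, these overlaps were almost fixed by the separate shares. In single LP-like cells, unthinned Meis2 counts ran from 1 to 26 UMIs with a median of 6 under the WT label and from 5 to 21 with a median of 7 under the KO label. In SE-like cells they ran from 1 to 22 with a median of 8.5 and from 2 to 13 with a median of 6. The single-cell counts of the 4 sets overlap widely.

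Meis3, a Meis gene of hindbrain and neural patterning, was spread more evenly and had its highest point outside the ectoderm. Neural crest-like cells had 91.2 CPM [63.9, 126] and 75.7 CPM [48, 114], and SE-like cells, next in both libraries, had 54.2 and 55.2 CPM. That step was within counting error, at 1.68-fold [0.941, 3.11] and 1.37-fold [0.715, 2.66]. The other classes lay between 28.4 CPM in RPE-like cells under the WT label and 53.7 CPM in forebrain-like cells under the KO label, apart from endothelium-like (3.96 and 4.19 CPM) and erythrocyte-like cells (1.56 and 2.39 CPM). The fall to endothelium-like cells was the only step between neighbours that was beyond counting error, 7.16-fold [3.41, 18.1] and 7.89-fold [3.92, 18]. Unlike Meis1 and Meis2, Meis3 was not clearly highest in the ectoderm. SE-like cells were not told apart from neural crest-like cells, and LP-like cells had 35.6 and 46.2 CPM.

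Pknox1, a Meis-related partner of Pbx proteins that is widely expressed in embryos, was sparse in all classes, with 8.79 and 8.49 CPM over all kept cells. Among the classes put in order, which leave out the macrophage-like cells, its highest values were in endothelium-like cells, 14.7 and 16.8 CPM. In that class Meis1, Meis2 and Meis3 were close to absent. Ectoderm-like cells held 7 and 10 UMIs, or 5.60 and 12.2 CPM. No step between neighbouring classes was beyond counting error in either library, and the 6.24 and 7.76 CPM in erythrocyte-like cells are as high as in several other classes.

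Pbx2, a broadly expressed Pbx partner, had a narrower range across the classes, erythrocyte-like cells apart. In the library labelled WT it ran from 67.7 CPM in neural retina-like to 119 CPM in Foxc-high mesenchyme-like cells, and under the KO label from 72.4 CPM in forebrain-like to 118.5 CPM in neural crest-like cells. No step between neighbours in these ranges was beyond counting error, but the ends of the range under the WT label had separate intervals, [101.2, 138] in Foxc-high and [53.9, 83.9] in neural retina-like cells. Erythrocyte-like cells were far lower, at 12.5 and 14.9 CPM. Ectoderm-like cells had 94.3 and 90.2 CPM, and LP-like and SE-like cells could not be told apart, with an LP-like over SE-like ratio of 0.995 over both libraries.

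Pbx3, a Pbx gene with a role in the nervous system, peaked in RPE-like cells, with 75.2 CPM [68.6, 82.2] and 75.6 CPM [69.4, 82.2]. The step to the next class was 1.22-fold [1.01, 1.49] under the WT label, where forebrain-like cells came second with 61.4 CPM, and 1.49-fold [1.30, 1.70] under the KO label, where ventral optic vesicle-like cells came second with 50.8 CPM. Ectoderm-like cells had 38.4 and 35.4 CPM.

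Pbx4, another Pbx partner, had its highest levels in the neuroectoderm. Its 4 highest classes were the same in both libraries: ventral optic vesicle-like (25.2 and 28.9 CPM), forebrain-like (24.0 and 27.7 CPM), neural retina-like (22.8 and 27.6 CPM) and RPE-like cells (22.4 and 23.03 CPM). These 4 could not be told apart from their neighbours. Alx-high mesenchyme-like cells had 10 and 25 UMIs, or 2.76 and 4.25 CPM, and endothelium-like cells 0.566 and 1.86 CPM. LP-like cells held 7 and 10 UMIs, or 7.78 and 22.0 CPM. Under the KO label RPE-like cells could not be told apart from them (1.05-fold [0.555, 2.22]), and they lay 3.48-fold [1.35, 8.78] above the next class. Under the WT label the step to the next class was within counting error (1.80-fold [0.519, 6.49]). Counts this low do not place the gene in the placode.

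**Figure D2:**
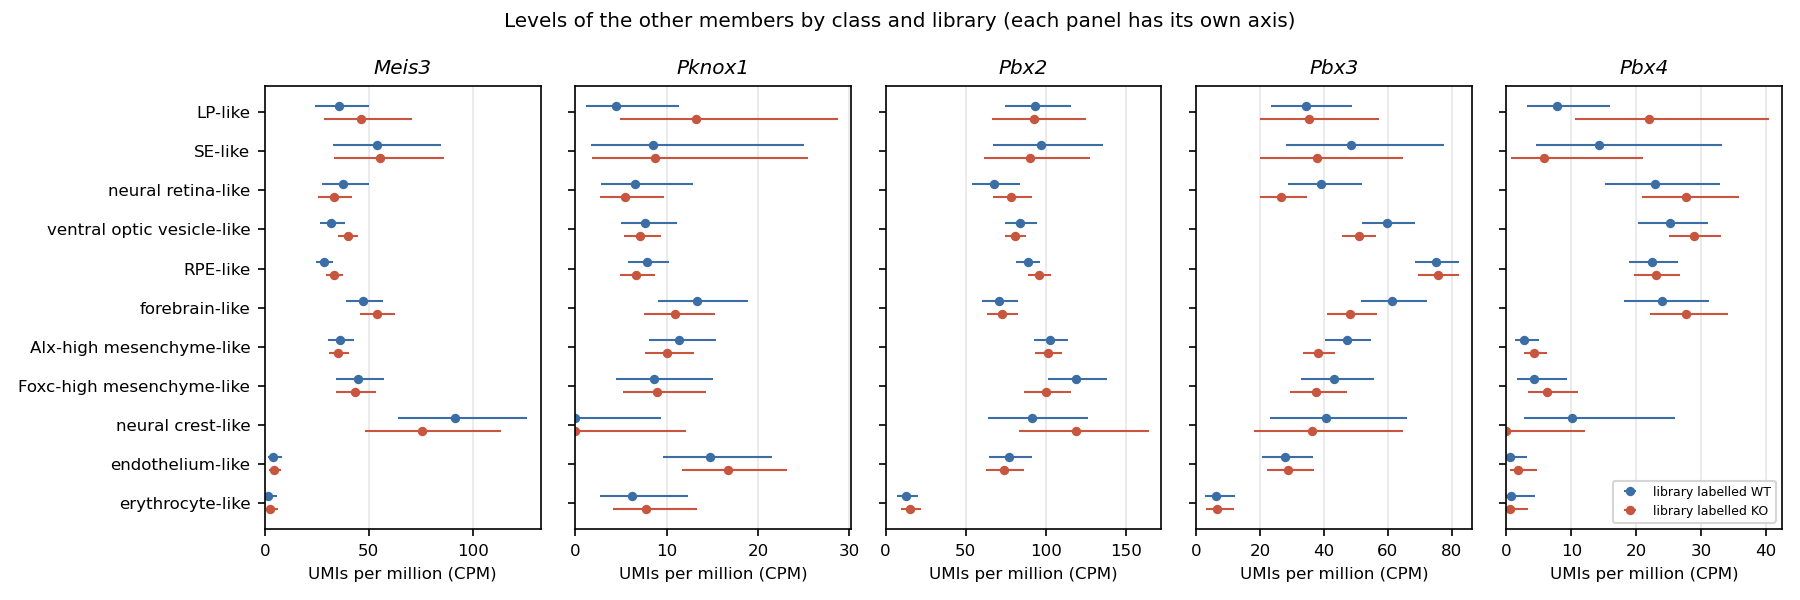
Levels of Meis3, Pknox1, Pbx2, Pbx3 and Pbx4 in CPM by cell class under the WT label and the library labelled KO, with exact 95% intervals for counting error. Meis3 was highest in neural crest-like cells (91.2 and 75.7 CPM), Pbx3 in RPE-like cells (75.2 and 75.6 CPM) and Pbx4 in the 4 neuroectoderm classes.

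Over the 11 classes and 2 libraries (22 points, log2 of CPM + 10), the members whose patterns were most alike were Meis1 and Meis2, with Pearson's r = 0.95, followed by Pbx2 and Pbx3 with r = 0.796. Meis1 and Pknox1 had r = 0.0899. Among 12183 genes, the patterns most like that of Meis1 were those of Wfdc2 (r = 0.965), Meis2 and Sema5a (r = 0.945), and for Meis2 they were Igsf9 (r = 0.959), Meis1 and Rab11fip4 (r = 0.939). For Meis3 they were Arvcf (r = 0.974), Pik3r2 and Nr2f1, for Pbx2 Tia1 (r = 0.977), Yap1 and Igf2bp1, for Pbx3 Pvrl3 (r = 0.92), Gm1673 and Cdk4, for Pbx4 Gldc (r = 0.936), Fgf13 and Slc35f1, and for Pknox1 Rbm19 (r = 0.862), Papola and Ttpal. These are descriptions over points that share 2 libraries and their depth, and sparse genes such as Pknox1 are matched by counting noise as well.

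Within the ectoderm, Meis1 was lower in LP-like than in SE-like cells in both libraries. The LP-like over SE-like ratio was 0.605 [0.465, 0.790] under the WT label, 0.564 [0.419, 0.758] under the KO label and 0.575 [0.475, 0.698] over both. Meis2 had a ratio of 0.574 [0.476, 0.695] under the WT label and 1.02 [0.805, 1.29] under the KO label, so SE-like and LP-like cells were told apart under the WT label and not under the KO label. Meis3 had 0.657 [0.361, 1.23] and 0.837 [0.428, 1.65], intervals that include equal levels. Counting ratios of at least 1.5 or at most 1/1.5 for genes with at least 30 UMIs, 3 of 5 members were past the fold under the WT label (Meis1, Meis2 and Meis3), where 26.5% of all genes were. Under the KO label it was 1 of 4 (Meis1), beside 19.5% of all genes, and over both libraries 1 of 5 (Meis1), beside 20.2%. The median ratio of the members was 0.657, 0.927 and 0.729 in these 3 comparisons, and that of all genes 1.01, 0.984 and 0.99. Pax6, which is one of the markers that define the gate, ran the other way, at 360.1 against 65.6 CPM under the WT label and 299 against 78.4 CPM under the KO label. LP-like cells also carried more of the 7 optic vesicle markers, of which Six3 is a placode marker too. These summed to 597 against 62.7 CPM under the WT label and 735 against 148 CPM under the KO label. Rax, another of them, was at 52.2 against 2.85 CPM and at 46.2 against 0 CPM. Ectoderm-like cells that also passed the neuroectoderm gate were kept in these classes, and their part in the ratios was not tested.

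The same cells were also put in finer bins by the number of placode markers detected. The gates use this number too, so the bins are no separate support for the ratios above. The markers counted include Mab21l1 and others lower under the KO label, so a bin need not hold like cells in both libraries. Under the WT label, Meis1 was at 313, 217, 190.0 and 157 CPM and Meis2 at 568, 489, 384 and 281 CPM in cells with 0 to 1, 2 to 3, 4 to 5 and 6 to 8 placode markers. Both values fell at each step, but the intervals of neighbouring bins overlapped. Under the KO label, Meis1 was at 279.8, 322, 224 and 161 CPM and Meis2 at 396, 361, 477 and 335 CPM, with no steady order for Meis2. Only the WT bin with 6 to 8 markers holds more than 20 cells (27), and the others hold 7 to 18. The bins also differ in depth: under the WT label, 13 cells with 0 to 1 markers held 207779 UMIs and 27 with 6 to 8 held 668210. Under the KO label, 7 and 11 cells held 85765 and 316407 UMIs. Cells with 3 or 4 placode markers, next to the cut, numbered 7 of 59 and 7 of 44.

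**Figure D3:**
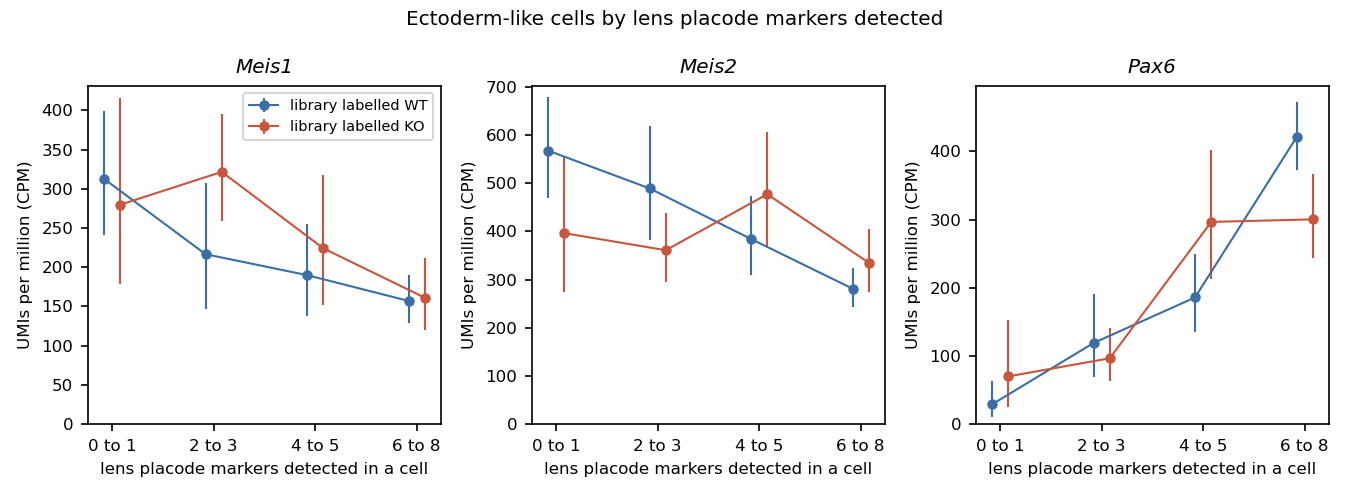
Levels of Meis1, Meis2 and Pax6 in CPM in ectoderm-like cells grouped by the number of LP markers detected, in each library, with exact 95% intervals. Under the WT label Meis1 fell from 313 to 157 CPM and Meis2 from 568 to 281 CPM across the bins, while Pax6, itself an LP marker, rose from 28.9 to 420.5 CPM.

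The ectoderm was also split into subclusters without use of the members, the placode and surface markers or further named lens genes, which gave LP-like groups of 32 and 28 cells and SE-like groups of 28 and 19. Between them, 8 of 9 placode markers were at least 2-fold higher in the first and 3 of 7 surface markers in the second. There the LP-like over SE-like ratio of Meis1 was 0.708 [0.545, 0.919] under the WT label and 0.646 [0.488, 0.859] under the KO label, and that of Meis2 0.615 [0.509, 0.742] and 0.926 [0.736, 1.17]. When cells were divided by Pax6 and Six3 UMIs alone, which leaves 9 and 5 cells without either, the ratio of Meis2 was 0.8992 and 1.001 and no longer apart from equal levels. That of Meis1 was 0.641 [0.450, 0.934] under the WT label and 0.779 [0.471, 1.37] under the KO label, where the interval includes equal levels.

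Between genotypes, no member with at least 30 UMIs was past 1.5-fold in the undivided ectoderm-like class. Meis1 had a KO over WT ratio of 1.22 [1.01, 1.48] there and Meis2 of 1.01 [0.869, 1.16]. Pbx2 had 0.956 [0.705, 1.29], Pbx3 0.921 and Meis3 1.23 [0.792, 1.89]. The Meis2 interval reaches up to a 1.16-fold rise by counting error alone. It covers no spread between cells or embryos and no difference in cell mix, so a larger rise is not excluded. Pknox1 (2.18 [0.748, 6.74]) and Pbx4 (1.52, with 12 UMIs in each library) were too sparse to compare. Of the 5 members with at least 30 UMIs, 0 were past the fold, beside 15.3% of all genes tested, with a median ratio of 1.01 for the members and 0.988 for all genes. In the same cells, several genes of the Pax6 network were lower under the KO label: Pax6 itself at 277 and 206.0 CPM (0.743 [0.614, 0.895]), Maf, a crystallin regulator, at 151 and 73.2 CPM (0.484 [0.356, 0.650]) and Pitx3, needed for lens vesicle separation, at 37.6 and 3.66 CPM with 47 and 3 UMIs. Sox2, the Pax6 partner, had 74.4 and 85.3 CPM (1.15 [0.829, 1.58]). By the gates, the class held 39 LP-like and 20 SE-like cells under the WT label and 19 and 23 under the KO label. The part of this mix in the ratios of the whole class was not tested. In LP-like cells alone, Pax6 was at 360.1 and 299 CPM, Maf at 206.7 and 132 CPM and Pitx3 at 52.2 and 6.60 CPM. Sox2 went the other way there, at 97.8 and 145.2 CPM (88 and 66 UMIs), and Prox1 was at 14.45 and 15.4 CPM. All of these genes are among the placode markers that the LP-like gate counts. Their levels in this class therefore depend on the gate and are no separate check on the mix.

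The summed placode marker level of ectoderm-like cells was 1396 CPM under the WT label and 849.8 CPM under the KO label, the summed surface marker level 333 and 419 CPM, and the summed level of the 9 erythrocyte markers 179.9 and 399 CPM. The erythrocyte sum was not particular to the ectoderm: it was 194.8 and 399 CPM in RPE-like and 225 and 488 CPM in forebrain-like cells. In ectoderm-like cells the 3 ventral optic vesicle markers summed to 10.4 and 54.9 CPM (14.4 and 99.0 CPM in LP-like cells, 0 in SE-like cells). The 6 RPE markers summed to 32.8 and 7.32 CPM there and the mesenchyme markers to 60.8 and 51.2 CPM. Their part in the Meis1 and Meis2 ratios was not tested.

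Meis2 moved in opposite directions in the 2 ectoderm classes. In LP-like cells its KO over WT ratio was 1.23 [1.01, 1.49], and in SE-like cells 0.694 [0.550, 0.873]. Meis1 had 1.09 [0.821, 1.43] and 1.17 [0.880, 1.55]. In SE-like cells Six3, a placode marker, was at 22.8 CPM with 8 UMIs under the WT label and 90.1 CPM with 31 UMIs under the KO label. Pax6 was at 65.6 and 78.4 CPM, with 23 and 27 UMIs. The SE-like cells of the libraries thus also differ in Six3, whose part in the Meis2 difference was not tested. By subclusters the Meis2 ratios were 1.17 [0.958, 1.42] and 0.775 [0.618, 0.967], and by Pax6 and Six3 alone 1.08 [0.918, 1.27] and 0.970 [0.562, 1.62]. No member was past the fold in LP-like cells (5 with at least 30 UMIs, beside 20.2% of all genes) or SE-like cells (5, beside 17%). The members' median ratio was 1.09 in LP-like cells, where that of all genes was 0.99, and 0.929 in SE-like cells, where it was 1.02.

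In the neuroectoderm-like cells as a whole (855 and 1234 cells), 0 of 7 members were past the fold, beside 4.55% of all genes. Meis1 had a ratio of 1.09 [1.03, 1.16], Meis3 of 1.10 [1.01, 1.21], Pbx4 of 1.13 [1.02, 1.26] and Pbx3 of 0.862 [0.803, 0.925]. By class, 0 of 6 members with enough UMIs in neural retina-like cells were past the fold (beside 10.9% of all genes), 0 of 7 in ventral optic vesicle-like cells (7.36%), 0 of 7 in RPE-like cells (6.39%) and 0 of 7 in forebrain-like cells (8.18%). Meis1 had 1.17 [1.05, 1.30] in RPE-like cells. Its ratio was above 1 in all 4 of these classes, but outside RPE-like cells its intervals included equal levels. Meis2 had 0.825 [0.687, 0.991] and Pbx3 0.786 [0.621, 0.996] in forebrain-like cells. The widest member difference in these classes, among members with at least 30 UMIs, was Pbx3 in neural retina-like cells, at 39.1 and 26.6 CPM (0.680 [0.453, 1.02]), an interval that includes equal levels. Clusters 13 and 6 of the joint clustering led the neural retina-like class and the neuroectoderm under the WT label, and cluster 11 led both under the KO label.

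The mesenchyme-like cells as a whole (474 and 741 cells) had 0 of 7 members past the fold, beside 5.85% of all genes, with a member median of 1.15 beside 1.004 for all genes. Meis1 had 1.38 [1.17, 1.64], Meis2 1.33 [1.22, 1.45] and Pbx3 0.812 [0.710, 0.928]. Foxc-high mesenchyme-like cells held 0 of 5 members past the fold, beside 13% of all genes. Endothelium-like cells held 0 of 3 (beside 10.4%), neural crest-like cells 0 of 2 (19.1%) and erythrocyte-like cells 0 of 1 (10.6%).

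The Alx-high mesenchyme-like class, named for Alx1 and related genes of the craniofacial mesenchyme, was the only class with members past the fold: 2 of 7, Meis1 and Pbx4, beside 7% of all genes. Meis1 had 108 UMIs or 29.8 CPM in the 196 cells under the WT label and 282 UMIs or 48.0 CPM in the 371 cells under the KO label, a ratio of 1.61 [1.29, 2.03]. Meis2 had 395 and 945 UMIs, or 109 and 161 CPM, a ratio of 1.48 [1.31, 1.66]. Pbx4 rested on 10 and 25 UMIs, with a ratio of 1.54 [0.715, 3.60] that includes equal levels. Pbx3 had 0.808 [0.659, 0.992]. The median ratio of the members was 0.988, beside 1.01 for all genes. Over the 11 classes, 2 of 55 pairs of member and class with at least 30 UMIs were past the fold, beside 10.4% of all pairs of gene and class.

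The class was not made of the same cells in both libraries. Cluster 3 held 95 of its 196 cells under the WT label (48.5% [41.3, 55.7]) and 114 of 371 under the KO label (30.7% [26.1, 35.7]), and cluster 4 held 54 (27.6% [21.4, 34.4]) and 216 (58.2% [53, 63.3]). In cluster 3, Meis1 was at 20.3 and 19.0 CPM (0.936 [0.585, 1.49]) and Meis2 at 89.0 and 80.1 CPM (0.9003 [0.723, 1.12]), so neither was higher under the KO label there. In cluster 4, Meis1 was at 49.5 and 72.5 CPM (1.47 [1.07, 2.04]) and Meis2 at 135 and 223 CPM (1.65 [1.37, 1.99]). Both genes were higher in cluster 4 than in cluster 3 in each library, and cluster 4 is the larger share under the KO label. The clusters were made without the members. The 7 optic vesicle markers summed to 24.0 CPM in Alx-high cells under the WT label and 52.2 CPM under the KO label, with none of them at 0, and the erythrocyte markers to 228 and 505 CPM, while the Alx markers themselves summed to 748 and 772 CPM. The erythrocyte sum was likewise higher under the KO label in other classes, at 248 and 513 CPM in Foxc-high cells. The part of these marker sums in the Meis1 and Meis2 differences was not tested.

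**Figure D4:**
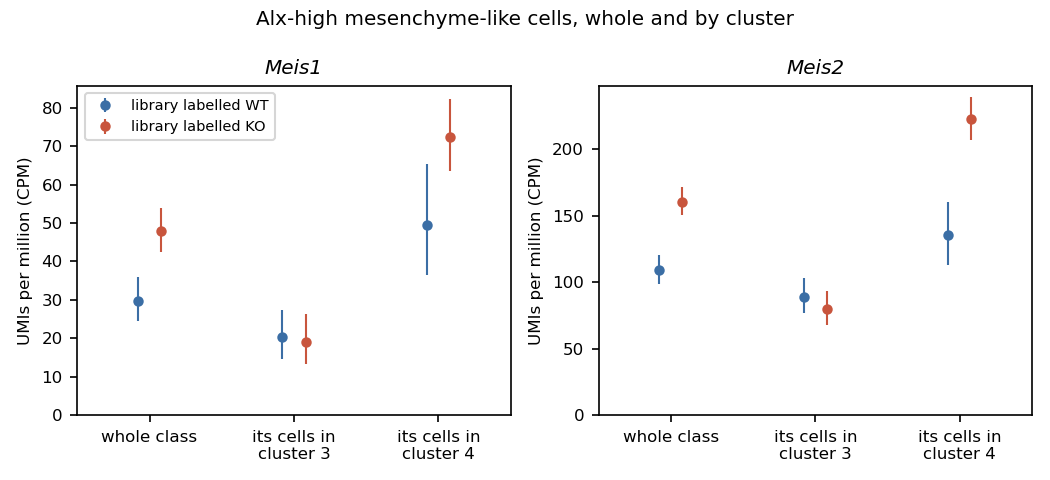
Levels of Meis1 and Meis2 in CPM in Alx-high mesenchyme-like cells of cluster 3 and cluster 4 in each library, with exact 95% intervals. In cluster 3 the libraries lie close together (Meis2 at 89.0 and 80.1 CPM), and in cluster 4 both genes were higher under the KO label (Meis2 at 135 and 223 CPM).

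**Figure D5:**
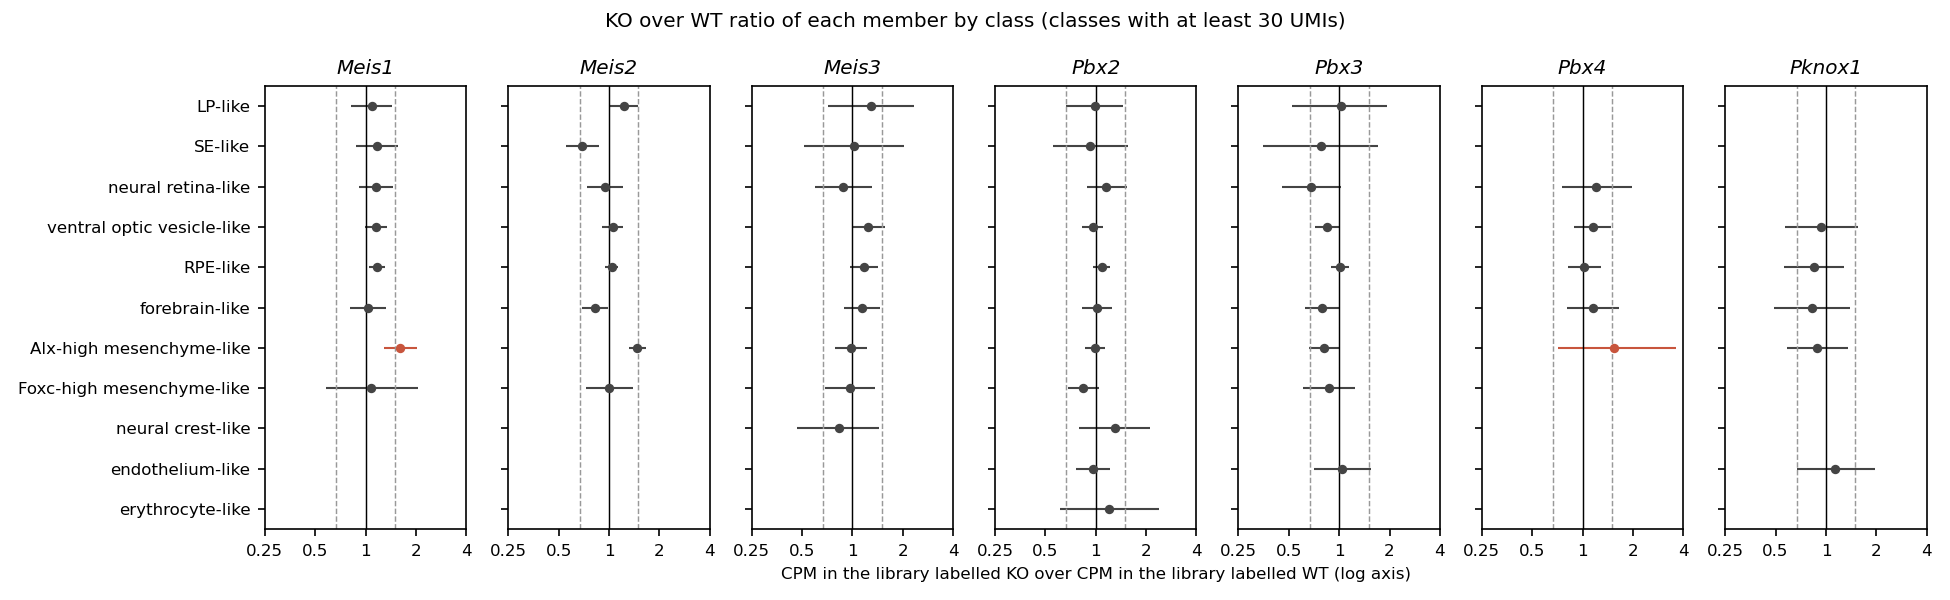
KO over WT ratio of CPM for each member in each cell class on a log axis, with exact 95% intervals. Most ratios lie between 1/1.5 and 1.5, and Meis1 (1.61) and Pbx4 (1.54) in Alx-high mesenchyme-like cells lie past the fold with at least 30 UMIs.

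The other TALE genes were counted in the same way: Pknox2, Tgif1, Tgif2, Irx1 to Irx6 and Mkx, 10 genes of the same homeobox class that include the Tgif repressors and the Iroquois patterning factors. In ectoderm-like cells 5 of the 10 had at least 30 UMIs and 0 were past the fold, beside the 15.3% of all genes given above, with Tgif2 at 88.0 and 89.0 CPM (1.01 [0.742, 1.37]) and Irx3 at 65.6 and 65.8 CPM. Within the ectoderm, Irx3 was past the fold downward in LP-like cells (1 of 3, 0.577 [0.210, 1.38], all genes 20.2%) and Tgif1 in SE-like cells (1 of 4, 0.544 [0.277, 1.03], all genes 17%). In Alx-high cells 1 of 5 was, Irx5, at 92.4 and 55.1 CPM (0.597 [0.510, 0.697], all genes 7%). In Foxc-high cells 2 of 5 were (all genes 13%), Irx3 at 131 and 207 CPM (1.58 [1.32, 1.89]) and Pknox2 at 28.8 and 17.9 CPM (0.623 [0.383, 1.01]). In neural retina-like cells 2 of 3 were (all genes 10.9%), Tgif1 (1.59 [1.09, 2.35]) and Pknox2 (1.81 [0.863, 4.16]). Irx5 was past the fold upward in the neuroectoderm as a whole (1.64 [0.960, 2.91]) and Irx3 downward in endothelium-like cells (0.548 [0.272, 1.07]). In mesenchyme-like cells as a whole and in the remaining classes the count was 0. Hox genes, the other known Pbx partners, were almost undetected over all kept cells: 4 of 12 genes of paralogue groups 1 to 4 had a UMI under the WT label, with 6 UMIs in all, and 5 of 12 under the KO label, with 16 UMIs.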

How the data were processed

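Deposited files were gene by barcode tables of UMI counts, 1 for each library, made by the authors with Cell Ranger from reads aligned to the mouse genome (mm10, GRCm38) and not normalized. UMIs were counted once for each molecule, near the 3′ ends of transcripts, so a level depends on the 3′ annotation and is compared between cells and not between genes.

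A cell was kept if its detected genes numbered 1500 to 8000 and no more than 5% of its UMIs were mitochondrial, after the study's filter (its mitochondrial limit read as a fraction), which left 1680 and 2404 cells. Classes were gates on 14 marker lists, with cells that carried markers of 2 classes (108 and 136 cells) or of none (45 and 81) left out. The exception was cells that passed the ectoderm and neuroectoderm gates and no other, which were kept as ectoderm-like. Scrublet at an expected rate of 0.05 was used to mark doublets, which were left out in an alternative only. Macrophage-like cells (17 and 6) were left out of the orders. UMIs were summed over the cells of a class and divided by all UMIs of these cells (CPM), with exact Poisson intervals. Shares have exact Clopper-Pearson intervals, and ratios of CPM exact conditional intervals for Poisson sums. A limit for a count of 0 is 3 UMIs of the class total. Cells are not replicates, so no test was run. The other genes of the class are given without those not reported here. The members, marker lists and gene lists were chosen with earlier results of these data known, and the numbers of markers a gate needs were set after the counts were seen. All 7 members are named in every class, with the 3 genes of most alike pattern for each. Clusters were found with scanpy 1.11.5 on 40 principal components without the members, and subclusters of the ectoderm also without 42 genes named by the study. The ratios were tried on simulated counts drawn from the same Poisson model that the intervals assume. Spread between cells beyond that model was not simulated. Python 3.11.15, numpy 2.4.6, scipy 1.17.1 and pandas 2.3.3 were used. Positions come from GENCODE vM21, in which 27645 of 27998 gene identifiers were found. Alternatives were clusters in place of gates, a stricter gate, doublets left out, thinning, other denominators, equal weight for cells and no minimum of UMIs.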

Additional observations from a re-analysis of the deposited data

Results flagged for a closer look

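Meis2 had KO over WT ratios of CPM on opposite sides of 1 with intervals that leave out equal levels: 1.23 [1.01, 1.49] in LP-like cells and 1.48 [1.31, 1.66] in Alx-high mesenchyme-like cells, against 0.694 [0.550, 0.873] in SE-like cells and 0.825 [0.687, 0.991] in forebrain-like cells. The difference between these classes was not tested, since each genotype has 1 library. The LP-like and SE-like values rest on gates that use genes lower in the library labelled KO, Mab21l1 among them. By subclusters the LP-like interval included equal levels, at 1.17 [0.958, 1.42], and the SE-like value was 0.775 [0.618, 0.967]. By Pax6 and Six3 alone both intervals included equal levels, at 1.08 [0.918, 1.27] and 0.970 [0.562, 1.62]. The Alx-high value was 0.9003 in cluster 3 and 1.65 in cluster 4.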

How the results depend on the processing

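No paired analysis was possible because each genotype has 1 library and the results come from no test, so no library could be left out either. Of 1057 recomputed KO over WT ratios, 1009 stayed within the counting interval of the reported ratio (on the natural log scale, kept its direction) and 45 did not. The other 3 turned a ratio past the fold to the other direction. Only the 2 ratios past the fold, Meis1 and Pbx4 in Alx-high cells, could be counted so, and both turned under some alternative. Many alternatives reuse the same UMIs and sparse genes have wide intervals, so staying within was favoured by design. In all, 120 of the 1057 lay on the other side of 1 from the reported ratio. Of 55 recomputed LP-like over SE-like ratios, 38 stayed within the interval, 17 did not and 13 lay on the other side of 1. In ectoderm-like cells, leaving mitochondrial, ribosomal protein and globin UMIs out of the denominator raised Meis1 to 285.5 and 349 CPM (WT and KO labels). Meis2 rose to 542 and 546 CPM. The stricter gate gave 224 CPM for Meis1 and 428 CPM for Meis2 under the WT label. Leaving out doublets and the ectoderm-like cells that also passed the neuroectoderm gate gave 222 and 287 CPM for Meis1. The KO over WT ratio there ranged from 1.05 to 1.29 for Meis1 and from 0.906 to 1.07 for Meis2, that of Meis3 was 0.706 after thinning, and the difference of Pbx2 on the natural log scale was 0.00917. In Alx-high cells, thinning gave 1.27 for Meis1, 1.71 for Meis2 and 0.755 for Pbx4. There, cluster 3 alone gave 0.936 for Meis1 and 0.9003 for Meis2, and cluster 4 alone 0.894 for Pbx4. Pairs of member and class past the fold numbered 2, counted over the 11 classes and the undivided ectoderm-like, neuroectoderm-like and mesenchyme-like cells. They numbered 5 with clusters in place of gates (which gave no ventral optic vesicle-like class) and 6 with the stricter gate. With equal weight for cells they numbered 1, and with no minimum of UMIs 13. The share of all genes past the fold was not computed under these alternatives, so these counts have no background to be read against. The LP-like over SE-like ratio of Meis1 was 0.701 by Pax6 and Six3 alone (0.779 under the KO label) and 0.708 by subclusters under the WT label. That of Meis2 was 0.574 and 1.02 by the gates under the WT and KO labels, 0.615 and 0.926 by subclusters, and 0.8992 and 1.001 by Pax6 and Six3 alone, which gave 0.936 over both. The cause of these shifts was not tested. The analyses within clusters, subclusters and the Pax6 and Six3 split were chosen after seeing the data. Depth limits the sparse genes most: with 7 and 10 UMIs, a Pknox1 ratio of 2.18 in the ectoderm had an interval of 0.748 to 6.74.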
